A study of Mus musculus with 6 samples.

Results

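Caveolae are small flask-shaped pits of the plasma membrane. Caveolins sit in the inner leaflet and build the membrane-embedded part of the pit, cavins form a peripheral coat on top of it, and the ATPase Ehd2 gathers at its neck and holds it at the cell surface. Smooth muscle cells carry many caveolae, which serve as a store of membrane under stretch and as a meeting place for receptors and channels. The expression of these coat genes was compared between cultured mouse aortic smooth muscle cells treated with an siRNA against Sirt6 (siSirt6) and control cells (Control). Of the 10 symbols searched (Cav1, Cav2, Cav3, Cavin1, Cavin2, Cavin3, Cavin4, the older names Ptrf and Sdpr, and Ehd2), 4 genes were found among the 7384 genes listed in each library: Cav1, Cavin1, Cavin2 and Ehd2. Ptrf and Sdpr are older names of Cavin1 and Cavin2. Cav2, Cav3, Cavin3 and Cavin4 were not analysed here.

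The siSirt6 group and the Control group held 3 libraries each, all from vascular smooth muscle cells cultured from mouse aorta and all at 48 h. The sources used here give neither strain, age and sex nor the agent that the Control cells were given. Nothing in the labels says that the libraries of a group came from separate cultures or animals, so p-values measure the spread between these libraries, which may be technical. Values are given as normalised read counts, which are whole reads divided by 1 factor per library.

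Sirt6, the targeted deacylase, stood at 44.5 to 63.5 in siSirt6 and 251.7 to 270.4 in Control libraries, a log2 fold change of -2.21. The listed genes took 14458847 to 14866718 reads in the 5 libraries whose read step passed a check of the unit. By the step of siSirt6 replicate 1, which did not pass, they took 15526399. Counting error depends on the reads of each gene and does not cover the whole spread between libraries. The tables hold almost exclusively genes that differ: of 7179 genes, 99.8% passed the test (50.5% as higher and 49.3% as lower after siSirt6), and in 96.8% the ranges of the groups did not overlap. Passing the test is therefore the common state of a listed gene, and the size and direction of a change are what is described. Of the 4 coat genes, 2 were higher, 1 was lower and 1 did not pass. The median log2 fold change over all genes tested was 0.08, and the median of its size without sign was 0.37.

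Cav1 encodes caveolin-1, without which cells outside striated muscle form no caveolae. It lies on chromosome 6 at 17306335 to 17341452 (GRCm38, plus strand) and carries the identifier ENSMUSG00000007655. Its normalised read counts were 14920.3, 15141 and 15009.8 in the siSirt6 libraries, against 10284, 10208 and 10581 in the Control libraries. Every siSirt6 library lay above every Control library, and the libraries of each group lay close together. The means were 15024 ± 111 in siSirt6 and 10357 ± 197 in Control (SD, n = 3 each), a ratio of 1.45. Cav1 rose, with a log2 fold change of 0.54 ± 0.020 (SE) and an adjusted p of 4.09e-22 by limma with Benjamini-Hochberg adjustment. Its rise was larger than the change, in either direction, of 72.2% of the genes tested.

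Cavin1 encodes the coat protein that caveola assembly requires. It lies on chromosome 11 at 100956733 to 100970887 (minus strand, ENSMUSG00000004044) and was the most abundant of the 4 genes. Its normalised read counts were 30235, 30014 and 28473 in the siSirt6 libraries, against 22953, 22532 and 22733 in the Control libraries. The groups did not overlap, and siSirt6 replicate 3 lay lowest within its group. The means were 29574 ± 960 in siSirt6 and 22739 ± 211 in Control (SD, n = 3 each), a ratio of 1.30. Cavin1 rose by less than Cav1, with a log2 fold change of 0.38 ± 0.019 (SE, limma adjusted p = 2.01e-17).

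Cavin2, formerly Sdpr, encodes a cavin that binds phosphatidylserine and bends membranes. It lies on chromosome 1 at 51289126 to 51302960 (plus strand, ENSMUSG00000045954) and was the least abundant of the 4 genes. Its normalised read counts were 5706, 4772 and 5707 in the siSirt6 libraries, against 4586, 4819 and 4803 in the Control libraries. siSirt6 replicates 1 and 3 stood above all Control libraries, while siSirt6 replicate 2 stood within the Control range. The means were 5395 ± 539 in siSirt6 and 4736 ± 130 in Control (SD, n = 3 each). The log2 fold change was 0.18 ± 0.085 (SE) with a 95% interval from -0.05 to 0.41 and an adjusted p of 0.0923 by limma, so Cavin2 did not pass. It was 1 of 13 genes of the 7179 tested that did not. Without siSirt6 replicate 2, the log2 fold change was 0.27 with a limma adjusted p of 3.14e-10; over all alternatives the adjusted p lay between 3.14e-10 and 0.714, and that setting alone of the 17 tried passed.

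Counting error was smaller than the gap between the Cavin2 libraries. siSirt6 replicate 2 held 4629 Cavin2 reads, which gives an exact Poisson 95% interval of 4635 to 4911 in normalised read counts. In siSirt6 replicate 3 the interval from 5484 reads was 5557 to 5860.2. The 2 intervals do not overlap, and they cover counting error only. The SD of the log2 values of Cavin2 was 0.15 over the siSirt6 libraries and 0.040 over the Control libraries. Among the 2808 tested genes with a mean of at least 1000, Cavin2 had the 15th largest SD in siSirt6, where the median was 0.036, and the 1083rd largest in Control. The other 3 coat genes had siSirt6 SDs of 0.011 for Cav1, 0.047 for Cavin1 and 0.021 for Ehd2, and in none of them did siSirt6 replicate 2 lie lowest of the 3. These ranks describe a selected set of genes, in which genes with widely spread replicates may be fewer than in the whole transcriptome.

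**Figure D1:**
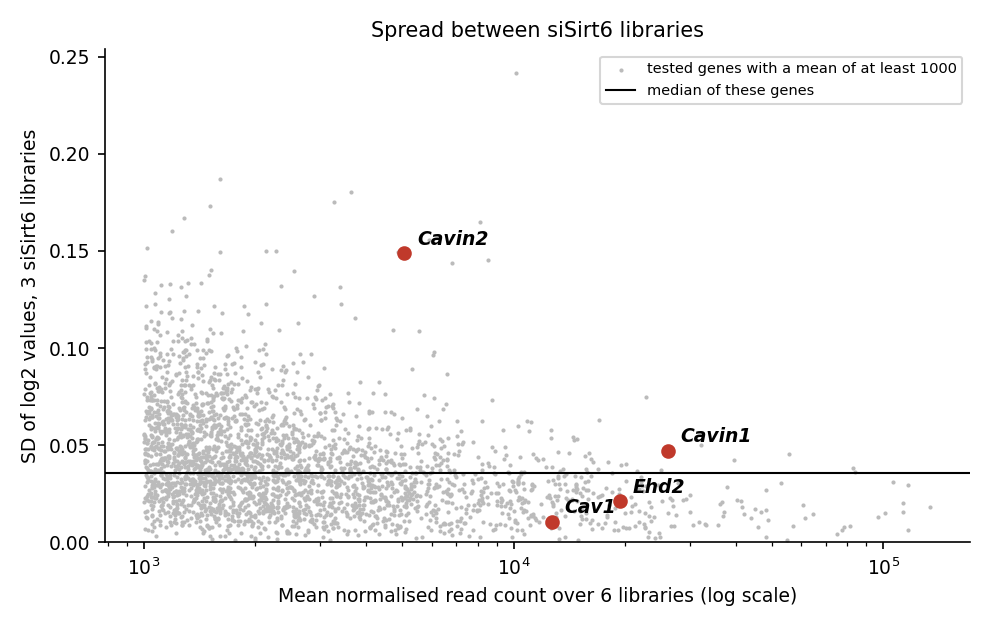
Each grey point is a tested gene with a mean normalised read count of at least 1000 over the 6 libraries (x axis, log scale), and the y axis gives the SD of its log2 values over the 3 siSirt6 libraries. Cavin2 stands at 0.15, above the median of 0.036 drawn as a line, while Cav1 and Ehd2 lie below that line and Cavin1 lies slightly above it at 0.047.

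Ehd2 encodes the neck ATPase. It lies on chromosome 7 at 15946958 to 15967567 (minus strand, ENSMUSG00000074364). Its normalised read counts were 18479, 18919 and 18985 in the siSirt6 libraries, against 20179.7, 19776 and 20236 in the Control libraries. All siSirt6 libraries were below all Control libraries, by a small margin. The means were 18794 ± 275 in siSirt6 and 20064 ± 251 in Control (SD, n = 3 each), a ratio of 0.937. Ehd2 fell, with a log2 fold change of -0.09 ± 0.018 (SE, limma adjusted p = 1.74e-05), but this direction turned round to 0.06 (limma adjusted p = 0.00429) once the dependence of fold changes on the length and GC content of transcripts was taken out. Of all genes tested, 1.60% had a smaller change in either direction.

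**Figure D2:**
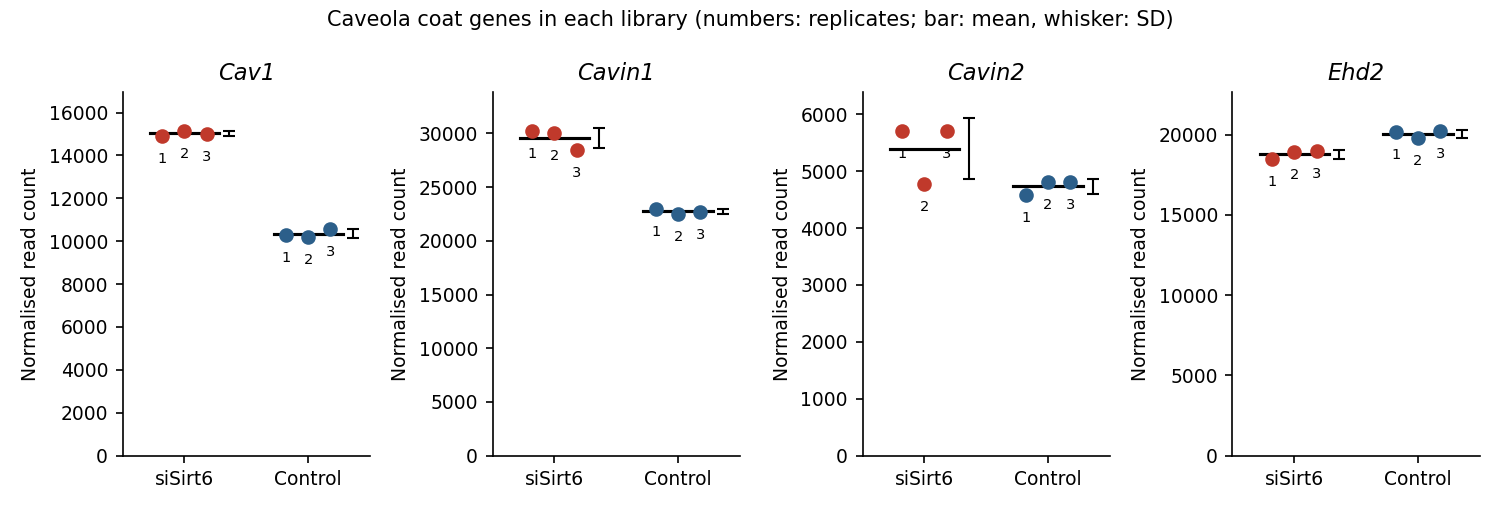
The normalised read count (y axis, from 0) of each coat gene in each library, siSirt6 in red and Control in blue; the small digits are replicate numbers, the bars group means and the whiskers SDs. Cav1 and Cavin1 are higher in all siSirt6 libraries, Ehd2 is slightly lower in all of them, and siSirt6 replicate 2 of Cavin2, at 4772, lies within the Control range of 4586 to 4819.

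Whether the coat genes moved by equal amounts was asked with ratios within a library, which no scaling of a library can change. Cavin1 stood at 2.03, 1.98 and 1.90 times Cav1 in the siSirt6 libraries, against 2.23, 2.21 and 2.15 times in the Control libraries. Cavin2 stood at 0.382, 0.315 and 0.380 of Cav1 in siSirt6, against 0.446, 0.472 and 0.454 in Control. Ehd2 stood at 1.24, 1.25 and 1.26 times Cav1 in siSirt6, against 1.96, 1.94 and 1.91 times in Control. All 3 ratios were lower in every siSirt6 library than in every Control library, Cavin2 included, whose own groups overlapped. They share Cav1, the coat gene that rose most, as denominator, so they are not 3 separate results. The dependence on transcript length and GC content differs between genes and does not cancel in these ratios. The log2 ratios differed by -0.16 for Cavin1, -0.35 for Cavin2 and -0.63 for Ehd2, siSirt6 minus Control, with pooled SDs of 0.040, 0.12 and 0.017. The 2-sided exact permutation p was 0.10 for each of the 3 ratios and stayed 0.10 after Benjamini-Hochberg adjustment over them, the smallest value that 3 libraries against 3 allow, so the design cannot pass 0.05 here.

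**Figure D3:**
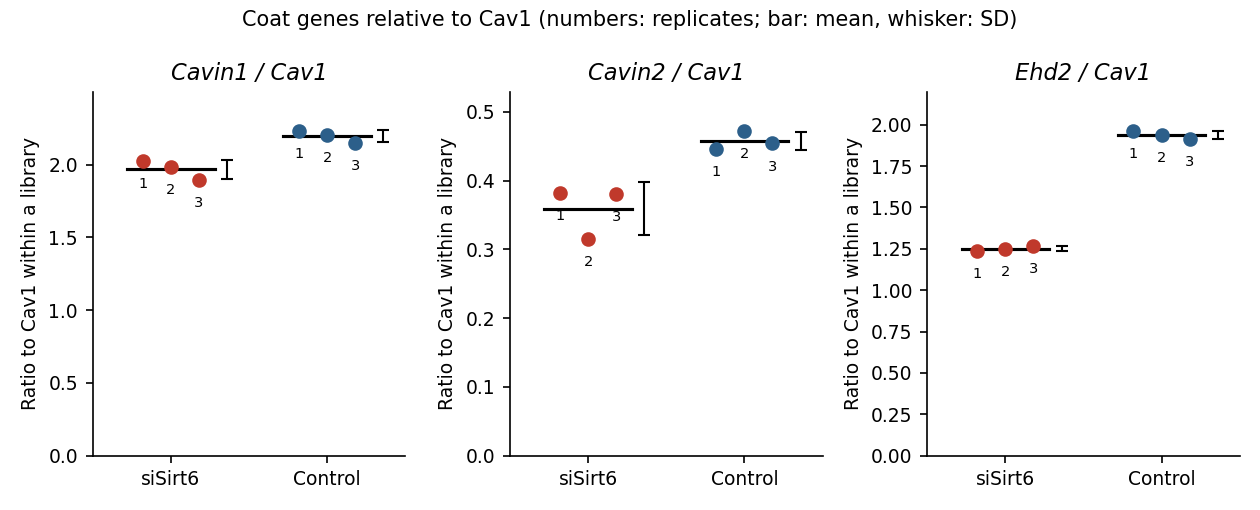
The ratio of the normalised read count of Cavin1, Cavin2 and Ehd2 to that of Cav1 in the same library (y axis, from 0), siSirt6 in red and Control in blue, with replicate numbers, group means as bars and SDs as whiskers. The siSirt6 libraries lie below the Control libraries in all 3 panels, and the gap is widest for Ehd2, at 1.25 against 1.94.

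Levels were compared between genes per kilobase of annotated exon. In siSirt6 the level per kilobase was 8245 ± 268 for Cavin1, 4362 ± 32.3 for Cav1, 3671 ± 53.7 for Ehd2 and 1766 ± 177 for Cavin2 (SD, n = 3). In Control it was 6339 ± 58.7 for Cavin1, 3919 ± 49.1 for Ehd2, 3007 ± 57.3 for Cav1 and 1550.2 ± 42.5 for Cavin2. Cavin1 led and Cavin2 came last in both groups. Cav1 and Ehd2 changed places: Cav1 stood at 4332 to 4396 per kilobase in siSirt6, above Ehd2 at 3609.9 to 3709, and Cav1 stood at 2964 to 3072 in Control, below Ehd2 at 3863 to 3953. Neighbours in this order did not overlap between libraries in either group. The size of the gap between Cav1 and Ehd2 depends on the length used: in Control, per kilobase of the longest transcript, Cav1 stood at 3772 and Ehd2 at 3919. Together the 4 genes took 0.450% ± 0.0017 of all listed values in siSirt6 and 0.411% ± 0.0040 in Control (SD, n = 3).

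Fold changes moved with transcript length: the median log2 fold change was 0.37 in the fifth of tested genes with the shortest transcripts and -0.32 in the fifth with the longest. The longest annotated transcripts are 2746 nt for Cav1, 3055 nt for Cavin2, 3491 nt for Cavin1 and 5119 nt for Ehd2. At the length and GC content of each gene, the trend over all tested genes was -0.04 for Cav1, -0.07 for Cavin2, 0.08 for Cavin1 and -0.15 for Ehd2 on the log2 scale. With this trend removed, Cav1 stood at 0.58 and Cavin1 at 0.30, both still called higher, Cavin2 at 0.25 (limma adjusted p = 0.0506) and Ehd2 at 0.06. Cav1 and Cavin1 kept their direction, and Ehd2 did not.

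**Figure D4:**
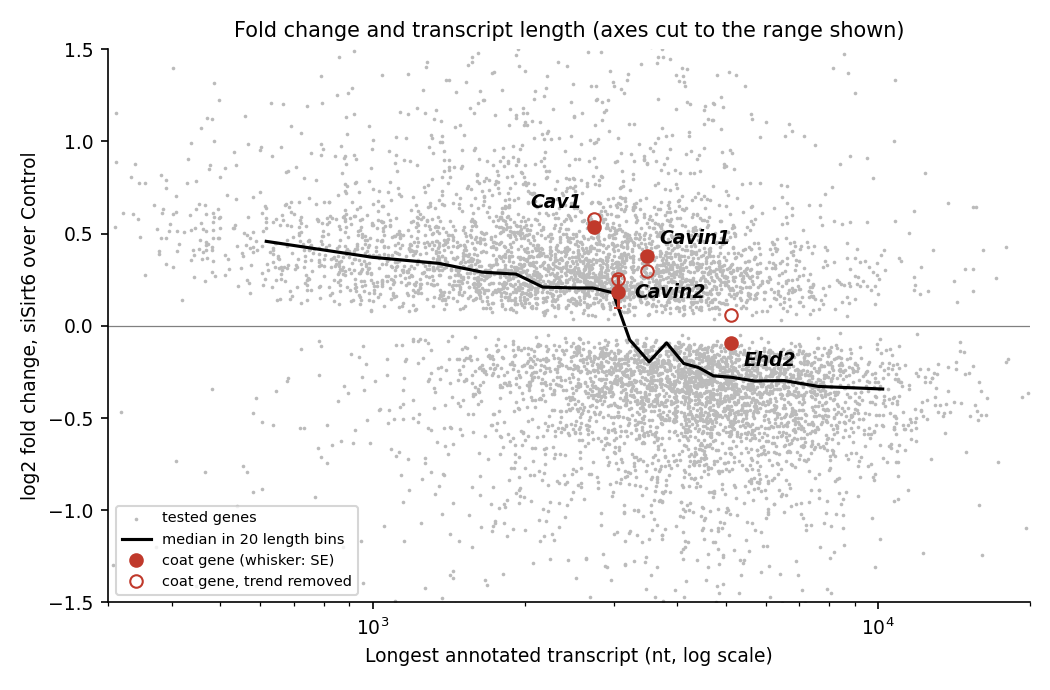
The log2 fold change of siSirt6 over Control (y axis) against the length of the longest annotated transcript (x axis, nt, log scale) for tested genes in grey, with the median in bins of length as a black line; both axes are cut to the range shown. Filled red points with SE whiskers are the coat genes and open points the same genes with the length and GC trend removed: Cav1 (0.54 and 0.58) and Cavin1 (0.38 and 0.30) stay above 0, and Ehd2 stands at -0.09 as deposited and at 0.06 with the trend removed.

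The bases before the start sites of Cav1, Cavin2 and Ehd2, whose log2 fold changes were 0.54, 0.18 and -0.09, are shown to let a reader compare them. They are the RefSeq windows of GRCm38.p6, 5′ to 3′ on the strand of the gene, cut where an annotated exon begins. Capitals mark motif matches that lie wholly within the printed bases. Cav1 covers chr6:17306085-17306334 (plus strand), Cavin2 chr1:51288876-51289125 (plus strand) and Ehd2 chr7:15967568-15967785 (minus strand).
Cav1: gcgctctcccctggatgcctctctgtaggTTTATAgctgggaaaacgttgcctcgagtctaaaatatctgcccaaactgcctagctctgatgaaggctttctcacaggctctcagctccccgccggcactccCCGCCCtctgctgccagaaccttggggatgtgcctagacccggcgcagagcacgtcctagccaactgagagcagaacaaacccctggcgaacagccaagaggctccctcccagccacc
Cavin2: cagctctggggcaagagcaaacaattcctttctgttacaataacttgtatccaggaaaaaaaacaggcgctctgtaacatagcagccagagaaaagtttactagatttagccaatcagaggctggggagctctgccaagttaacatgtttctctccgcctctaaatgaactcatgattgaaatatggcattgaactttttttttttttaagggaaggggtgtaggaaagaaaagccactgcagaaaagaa
Ehd2: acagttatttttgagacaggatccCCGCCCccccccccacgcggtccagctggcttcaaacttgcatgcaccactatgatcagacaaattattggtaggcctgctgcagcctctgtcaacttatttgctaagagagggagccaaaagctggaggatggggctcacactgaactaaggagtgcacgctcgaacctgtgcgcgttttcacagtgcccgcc

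Both strands of each window, 250 bases before to 50 after the start, were searched for the CArG box that serum response factor binds in smooth muscle genes, a TATA box (TATAAA), a GC box (GGGCGG), a TEAD motif (GGAATG), an E box (CACGTG) and an AP-1 motif (TGANTCA). The Cav1 window held a TATA match at -221 and GC box matches at -118 and -2 from the start. The match at -2 runs across the start and is not marked in capitals. The Ehd2 window held GC box matches at -226 and 14, of which the second lies after the start. None of the 6 motifs was found in the Cavin2 window. Both Cavin1 windows lie within an exon of the GENCODE annotation and are not printed. Their starts, at 100970615 and 100970617, lie so close that the windows held the same matches. These were a GC box match (-9 and -7) and a TEAD match (-249 and -247). A second Cav1 window further into the gene held no match. Within a window, no matches overlapped each other. Of 32851 windows of this length, 35.7% held a GC box, 14.7% a TEAD motif, 13.6% a TATA box, 7.81% an AP-1 motif, 7.15% an E box and 1.63% a CArG box. A match describes letters in these windows and no site.

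Genes of other proteins that act at caveolae were divided. Of 21 such genes, 14 were tested, of which 5 rose and 9 fell, beside 50.5% higher and 49.3% lower over all genes. Their median log2 fold change was -0.20 beside 0.08 over all genes tested. Taking out the length and GC trend gave 4 called higher, 7 lower and a median of -0.03. Over all genes tested, that setting called 2563 higher and 2556 lower, with a median of -0.0019. Ehd3, a relative of Ehd2 that works in endosomal recycling, fell to 1461 ± 31.9 in siSirt6, against 3093 ± 49.7 in Control (SD, n = 3; log2 fold change -1.08, limma adjusted p = 5.44e-24). Pacsin2, an F-BAR protein that bends membrane at caveolae, fell to 2011 ± 128 in siSirt6, against 2752 ± 63.3 in Control (log2 fold change -0.45). Flna, the actin cross-linker filamin A that ties caveolae to stress fibres, rose to 39866 ± 374 in siSirt6, against 34056 ± 149 in Control (log2 fold change 0.23, and 0.51 with the trend removed). Plvap, which forms the diaphragm of endothelial caveolae, rose to 399 ± 37.6 in siSirt6, against 176 ± 24.3 in Control (log2 fold change 1.18). Ehd4, a further Ehd relative chosen after its values were seen, fell with a log2 fold change of -0.33.

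Flotillins, prohibitins and stomatins build other membrane scaffolds. The scaffold list of 14 genes held these together with the erlins, the Mal proteins and Plp2. Of the 14, 10 were tested, of which 8 rose and 2 fell, beside 50.5% higher and 49.3% lower over all genes. Their median log2 fold change of 0.37 came to 0.14 with the length and GC trend removed, beside 0.08 and -0.0019 over all genes. Mal, which fell, and Mall, which rose, were low, with Control means of 55.7 and 7.78. Flot1, flotillin-1, averaged 5594 ± 118 in siSirt6 and 4270.3 ± 80.8 in Control (SD, n = 3), a log2 fold change of 0.39. The prohibitin Phb rose with a log2 fold change of 0.45, the mitochondrial Stoml2 with 0.58 and the membrane protein Plp2 with 0.40. With the trend removed, the log2 fold change was 0.11 for Flot1, 0.17 for Phb and 0.31 for Stoml2, and Plp2 did not pass (0.02, limma adjusted p = 0.496).

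Genes of clathrin-coated pits, the main alternative route of uptake, were divided. Of 26, 18 were tested, of which 8 rose and 10 fell, beside 50.5% higher and 49.3% lower over all genes. Their median log2 fold change of -0.11 turned to 0.05 with the length and GC trend removed, beside 0.08 and -0.0019 over all genes. Necap1, an adaptor-binding protein, fell to 432 ± 5.46 in siSirt6, against 829 ± 27.9 in Control (SD, n = 3; log2 fold change -0.94). The clathrin heavy chain Cltc had a log2 fold change of -0.34, which turned to 0.02 with the trend removed. The membrane-bending Bin1 rose with a log2 fold change of 0.57, and the adaptor subunit Ap2b1 with 0.31, or 0.54 with the trend removed.

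**Figure D5:**
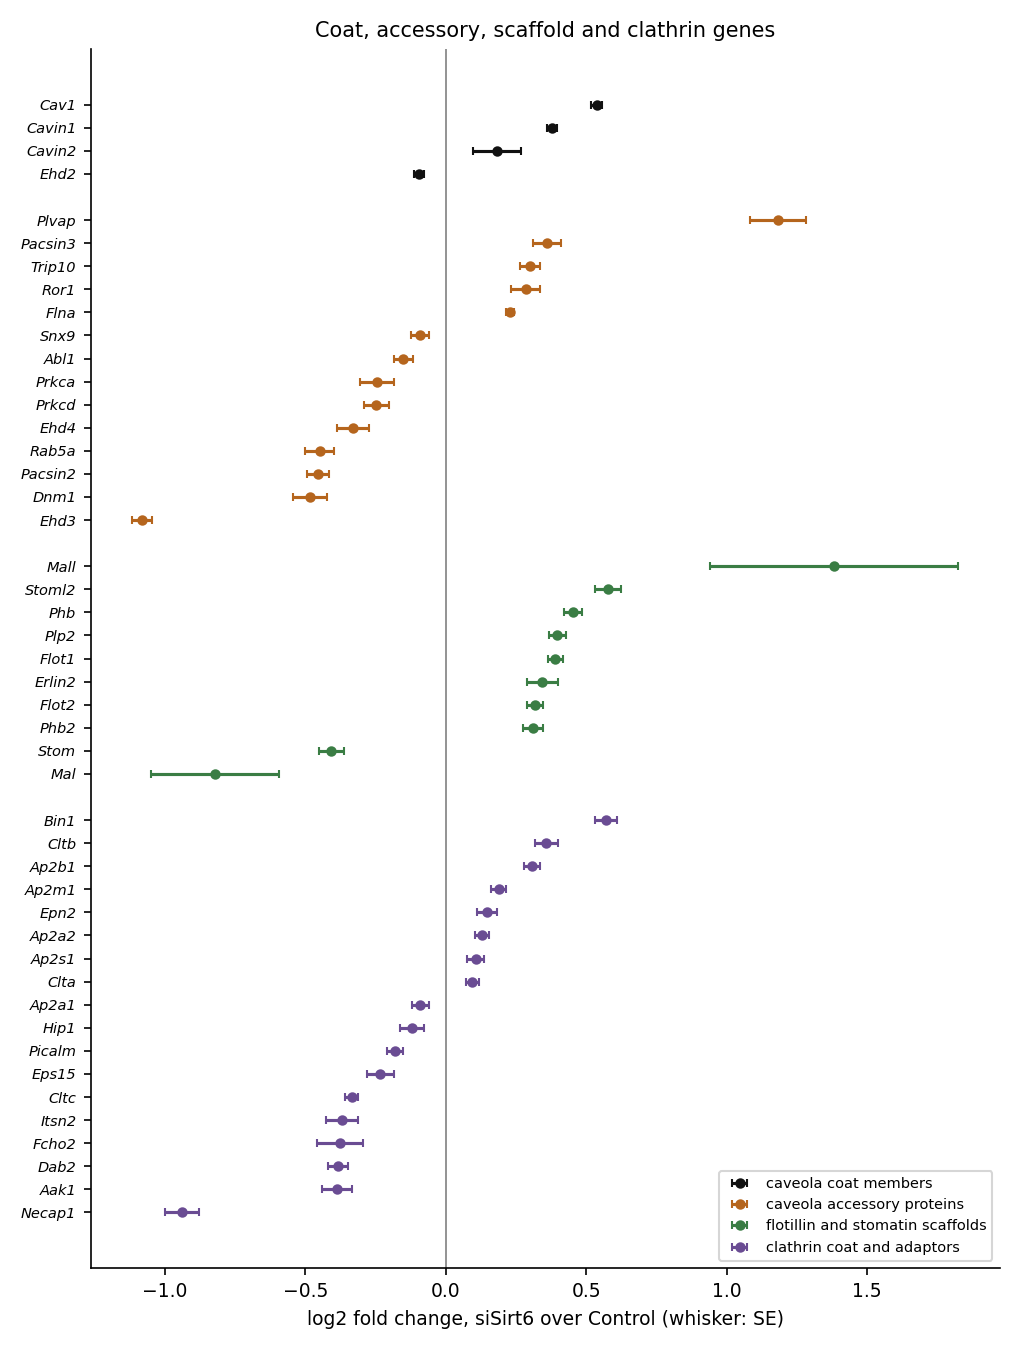
The log2 fold change of siSirt6 over Control (x axis) with its SE as a whisker for the 4 coat genes and for the tested genes of caveola accessory proteins, other membrane scaffolds and clathrin coats, each group ordered by value. Cav1 and Cavin1 lie right of 0 and Ehd2 just left of it. Accessory genes reach from -1.08 (Ehd3) to 1.18 (Plvap), and 8 of 10 genes of the scaffold list lie right of 0.

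Receptors, channels and enzymes that have been placed in caveolae were mostly lower. Of 45 listed in this group, 29 were tested, of which 7 rose and 22 fell, with a median log2 fold change of -0.31. With the length and GC trend taken out, 7 were called higher and 13 lower and the median was -0.13. Over all genes tested, the same setting called 2563 higher and 2556 lower, against 3624 and 3542 without it. The median over all genes was -0.0019 with the trend taken out. The lipoprotein receptor Scarb1 rose to 1804 ± 68.9 in siSirt6, against 1142 ± 66.2 in Control (SD, n = 3; log2 fold change 0.66). The water channel Aqp1 rose with a log2 fold change of 0.31 (0.16 with the trend removed), while the adenylyl cyclase Adcy5 fell with -0.70. Receptors for vasoactive agents, chosen after their values were seen, included 1 that was higher, the low endothelin receptor Ednrb, at 17.7 ± 4.84 in siSirt6 and 5.18 ± 1.11 in Control (SD, n = 3; log2 fold change 1.58), and 4 that were lower: the endothelin receptor Ednra (log2 fold change -0.40), the angiotensin receptor Agtr1a (-0.70), and the adrenergic receptors Adra1b (-0.42) and Adra1d (-1.10). Agtr1a was low, with a Control mean of 90.1.

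Caveolae need cholesterol, sphingomyelin and inositol lipids. Of 24 genes of this supply, 17 were tested, of which 5 rose and 12 fell, beside 50.5% higher and 49.3% lower over all genes. Their median log2 fold change was -0.18. Taking out the length and GC trend gave 6 called higher, 8 lower and a median of -0.07. Over all genes tested, that setting called 2563 higher and 2556 lower, with a median of -0.0019. The lipid kinase Pip4k2a fell to 782 ± 17.2 in siSirt6, against 1354 ± 59.5 in Control (SD, n = 3; log2 fold change -0.79). The sphingomyelin synthase Sgms2 fell with a log2 fold change of -0.78, and -0.44 with the trend removed. The acid sphingomyelinase Smpd1 rose with 0.33, and 0.14 with the trend removed.

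The 4 genes whose log2 values followed those of Cav1 most closely, among 4237 named genes with a mean of at least 500, were Actg2, Pmaip1, Lims2 and Adamts12, each with a Pearson r of 1.00 over 6 libraries. Actg2, enteric smooth muscle actin, averaged 2085 ± 29.3 in siSirt6 and 927 ± 38.7 in Control (SD, n = 3). Pmaip1, which promotes cell death, averaged 846 ± 7.34 and Lims2, an adaptor of focal adhesions, 1948 ± 4.77 in siSirt6, against 588 ± 15.0 for Pmaip1 and 1362 ± 23.7 for Lims2 in Control. Adamts12, a secreted metalloprotease, averaged 1709 ± 28.1 in siSirt6 and 614 ± 34.2 in Control. The 6 points share 2 groups and their scaling factors, and 33.9% of the 4237 genes had an r above 0.95.

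Endothelial cells, adipocytes and striated muscle are also rich in caveolae, so their markers were read beside the coat genes. For comparison, 50.5% of all genes tested were called higher and 49.3% lower after siSirt6. Of 15 endothelial markers 12 were tested and all 12 rose, with summed normalised read counts of 4953 to 5054 in siSirt6 and 3188 to 3400.5 in Control. Of 12 smooth muscle markers 10 were tested, of which 8 rose and 2 fell, with sums of 137393 to 138549 in siSirt6 and 89659.7 to 89864 in Control. Of 11 adipocyte markers 7 were tested, of which 4 rose and 3 fell, with sums of 4053 to 4131 in siSirt6 and 4310.3 to 4542 in Control. Of 10 markers of adventitial fibroblasts 9 were tested, of which 3 rose and 6 fell, with sums of 76166 to 77481 in siSirt6 and 91799 to 92745 in Control. All 3 tested macrophage and leukocyte markers of 12 rose, with sums of 1978 to 2018 in siSirt6 and 1777 to 1822 in Control. Of 12 skeletal and heart muscle markers, Tnnt2 was listed and rose (log2 fold change 0.56). No marker listed was at 0 in any library. Single genes made up much of some sums. The smooth muscle marker Acta2 averaged 96836 in siSirt6 and 58253 in Control. The fibroblast marker Gsn averaged 57433 in siSirt6 and 72100 in Control, and the endothelial marker Flt1 2557 in siSirt6 and 1998 in Control. Their part in the changes of the coat genes was not tested, and in such bulk samples fewer cells of a type and less RNA per cell cannot be told apart.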

How the data were processed

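RNA was sequenced in 3 siSirt6 and 3 Control libraries made with a stranded mRNA kit, per the labels' protocols; the tools Trimmomatic, HISAT2, HTSeq and Cufflinks and the build mm10 are in the submitters' processing notes, with no version or role. Each deposited signal value is a whole read number divided by a factor of its library: 100% came out whole, within 0.001 reads, in every library. For the factors and for the choice of the 7384 genes, the method is not stated in the sources. Reads outside the listed genes are unknown.

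From these values, log2(value + 1) was tested with limma 3.58.1 (in R 4.3.3, 2-sided, with robust empirical Bayes and a mean trend), without a replicate term, for 7179 genes with at least 10 in at least 3 libraries, and adjusted over all of them with a threshold of 0.05. Fold changes on this scale understate the change of low genes. The design assumed this unit or raw counts, and the limma form applied. Count tests (edgeR 4.0.16 quasi-likelihood and DESeq2 1.42.0) served as alternatives on reads recovered from 5 libraries, since the step of siSirt6 replicate 1 was not accepted by a check of the unit. Intervals of reads are exact Poisson intervals and cover counting error only. Lengths, GC content and positions were read from the GENCODE vM21 annotation of GRCm38 (mm10), which holds 7332 of the 7384 identifiers; promoter windows came from RefSeq, in which all 4 coat genes were found. The length and GC trend was a loess surface (span 0.3) of the log2 fold change. No exon of another gene shares bases with an exon of a coat gene. The antisense genes Gm15581 and 9330175M20Rik, which are not listed, overlap Cav1 and Cavin2 on the other strand. The fits were tested on simulated data.

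Genes named are Sirt6, the coat genes, the 4 members of each pathway list with the smallest p and the 4 genes most correlated with Cav1; others are said to be chosen later, and some are not reported here. Members and lists were chosen with earlier results of these data known. Replicate numbers did not pair the libraries (correlations of deviations from the group means -0.019, 0.027 and -0.001), and the 4 replicate pairs tested differed by more than sampling noise (chi-square per gene 1.94 to 2.49).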

Additional observations from a re-analysis of the deposited data

How the results depend on the processing

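Over 17 alternatives, the log2 fold change stayed called and positive for Cav1 (0.42 to 0.58) and Cavin1 (0.26 to 0.41), and Sirt6 lay between -2.48 and -2.06. When libraries were scaled to equal listed totals, the median of all genes moved by -0.119, and the coat genes stood at 0.42 (Cav1), 0.26 (Cavin1), 0.06 (Cavin2) and -0.21 (Ehd2). With the length and GC trend removed, Ehd2 reversed to 0.0569 and 0 coat genes were lower, 6 clathrin genes and 13 genes of caveolar receptors and channels were lower, and Cltc reversed to 0.0233; the cause was not tested. Leaving out 1 library gave Cavin2 0.14 to 0.27, and the highest value, without siSirt6 replicate 2, passed. A filter of mean 100 left 1 scaffold gene lower and 4 receptor genes higher, since it tests fewer genes. Under listed totals, with that shift of -0.119 in the median, 4 clathrin genes were higher, against 8 without this scaling. Among those 8, Clta, Ap2s1, Ap2a2 and Epn2 had log2 fold changes of 0.09, 0.11, 0.13 and 0.15 without it. The cause of the lower count was not tested. The counts of the pathway lists were tried under these alternatives after seeing the data. With the replicate block, 3629 genes were higher and 3540 lower, Cavin2 stood at 0.18 (limma adjusted p = 0.151), and no call of a coat gene changed. For the 24 other genes that the naming rule takes, 406 of 408 alternative values kept direction and call. DESeq2 on 5 libraries gave Cav1 0.52, Cavin1 0.34, Cavin2 0.12 and Ehd2 -0.11.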

Other observations

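Listed genes near the coat genes, chosen after seeing the data, are given by value. Before Cav1, the focal adhesion gene Tes, 201 kb away, averaged 532 ± 14.6 in siSirt6 and 319.8 ± 50.5 in Control (SD, n = 3; log2 fold change 0.74). After Cav1, the ligand gene Wnt2, 647 kb away, averaged 225 ± 39.3 in siSirt6 and 110.4 ± 13.0 in Control (log2 fold change 1.01). Beside Cavin1, the transcription factor gene Stat3 had a log2 fold change of 0.08 and the proton pump gene Atp6v0a1 of -0.58. Before Cavin2, Tmeff2 fell with a log2 fold change of -0.40. Nop53, a ribosome biogenesis gene that lies 0.884 kb from the end of Ehd2 at lower coordinates, averaged 2522 ± 65.5 in siSirt6 and 1959 ± 22.7 in Control (log2 fold change 0.36). On the other side of Ehd2, Napa had a log2 fold change of 0.27. All of these genes passed the test (limma, adjusted p below the threshold), as did 99.8% of the genes tested.

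The drop of Cavin2 in siSirt6 replicate 2 against the mean of siSirt6 replicates 1 and 3 was -0.26 on the log2 scale, the fifth lowest of 2808 genes with a mean of at least 1000. Lrrc58 (-0.32), Golph3 (-0.29) and Aspn (-0.28) dropped further in that library. The median over these genes was 0.0056.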
